A study of Mus musculus with 7 samples.

Results

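The 9 genes described here encode enzymes that make asparagine (Asns), proline (Aldh18a1 and Pycr1) and serine (Phgdh, Psat1 and Psph), and enzymes that pass one-carbon units through the mitochondrial folate pathway (Shmt2, Mthfd2 and Mthfd1l). They were chosen by name, as 9 of the 49584 features of the deposited tables, of which 15828 had a count in at least 1 library. Small RNA from crude heart mitochondria was sequenced from 4 Tefm knockout mice (genotype Tefm -/-, L/L with cre) and from 3 control mice (genotype Tefm +/+, L/L). All mice carried loxP-flanked Tefm alleles, in which an exon lies between the loxP sites, and the knockouts also expressed cre under the muscle creatine kinase promoter, so that cells of the heart other than muscle cells are not targeted. Tefm encodes a factor that keeps the mitochondrial RNA polymerase on its template, and the comparison asked what changes in small RNA when it is lost. The labels give no age or sex. The design text counts 4 control mice, and the 3 control libraries given were used, with 1 mouse assumed for each library. Where libraries are not separate animals, p-values measure only the spread between libraries.

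Serine is made in the cytosol from the glycolytic intermediate 3-phosphoglycerate, and inside mitochondria it is split into glycine and a one-carbon unit carried by tetrahydrofolate, which leaves as formate and is used to make purines and thymidylate. Proline is made from glutamate, and asparagine from aspartate and glutamine. In mammalian cells with impaired mitochondrial gene expression or respiration, mRNAs of these enzymes are known targets of the transcription factor Atf4, which binds C/EBP-ATF response elements in promoters. All 9 genes are nuclear, and their counts in these small RNA libraries of a crude fraction are low.

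Gene counts summed to between 973835 and 1302619 in knockout libraries and between 1560798 and 2570739 in control libraries. Nuclear protein-coding genes took 2.28% to 18.2% of the counts in knockouts and 3.27% to 6.23% in controls, and the highest share was in knockout 4, which also had the highest raw count for 8 of the 9 enzymes, all but Phgdh. Raw counts are therefore given with 2 scaled values, CPM (counts per 1000000 counts of TMM-normalised library size) and counts per 100000 nuclear protein-coding counts of the same library. Tefm itself had 0, 1, 0 and 2 counts in knockouts 1 to 4 and 0, 2 and 1 in controls 1 to 3, so its loss could not be checked at this depth. The 10 cardiomyocyte markers were all detected, with a summed level of 2542 to 4384 CPM in knockouts and 4920 to 7200 CPM in controls, and of 6 liver markers 2 were at 0 in every library, with a summed level of at most 4.58 CPM. Intervals on counts pool the reads of each group, so they cover counting error alone and leave out the spread between libraries. No molecular identifiers are described, so reads copied from the same molecule could not be told apart.

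Of the 9 enzymes, 7 had counts in every knockout library and 1, Shmt2, in every control library. Phgdh had counts in 2 knockouts and Psph in 3. Together the 9 genes had 31, 57, 84 and 190 counts in knockouts 1 to 4, against 4, 13 and 8 counts in controls 1 to 3. In relation to nuclear protein-coding counts this was 106, 128, 117 and 101 per 100000 in knockouts 1 to 4 and 7.83, 8.11 and 10.1 per 100000 in controls 1 to 3. The knockout values lay close together although the raw counts were lowest in knockout 1 and highest in knockout 4. Summed over libraries, 362 counts against 25 gave a ratio of 11.4 (95% counting interval 7.62 to 17.9), and without Asns it was 8.66 (5.64 to 13.9). No test was made of the sum, since the genes were chosen with earlier results of these data known.

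**Figure D1:**
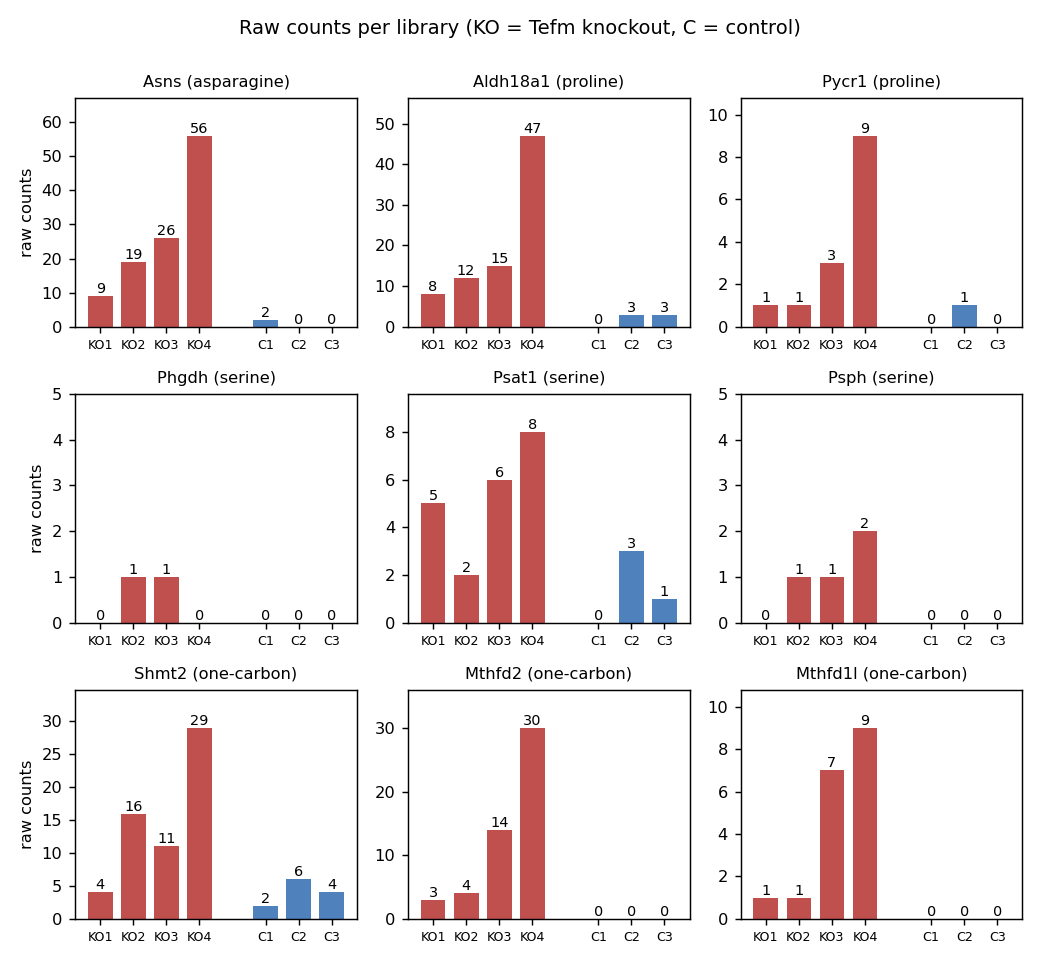
Raw counts (vertical axis, whole reads) of each of the 9 enzymes in every library, 4 Tefm knockouts (KO1 to KO4, red) left of 3 controls (C1 to C3, blue), each panel with its own scale. Asns reaches 56 counts in a knockout and 2 in a control, Mthfd2 and Mthfd1l have no control count, and Phgdh and Psph have at most 2 counts in any library.

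Asns, asparagine synthetase, which transfers the amide nitrogen of glutamine to aspartate, had the highest counts of the set and rose in the knockouts. It lies on chromosome 6 (7675169 to 7693254, minus strand, GRCm38, ENSMUSG00000029752.12). Its raw counts were 9, 19, 26 and 56 in knockouts 1 to 4 and 2, 0 and 0 in controls 1 to 3. The groups did not overlap, and all control counts were in control 1. Scaled, it averaged 16.9 ± 2.26 CPM in knockouts (SD, n = 4) and 0.671 ± 1.16 CPM in controls (SD, n = 3). With 110 counts against 2 the ratio was 43.5 (exact 95% counting interval 11.7 to 363), and 21.3 (5.76 to 178) without control 2. Without control 1 it was 23.2 when 3 counts were taken for the controls, with an exact lower limit of 18.6. Fitted over all genes, its log2 fold change was 5.12 ± 0.71 (SE, edgeR quasi-likelihood test, adjusted p = 0.00924). Its adjusted p was 0.0801 without control 2 and 0.0841 without control 3, where edgeR called 0 genes (395 without control 2 and 407 without control 3 at an unadjusted p under 0.05). Without knockout 2 it did not pass the low-count filter.

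The promoter of Asns is shown because it holds a match to the C/EBP-ATF response element. In the RefSeq window of 250 bases before to 50 after the gene start (GRCm38.p6, chr6:7693160-7693459, minus strand, read in the direction of the gene) the match is in capitals, at positions -23 to -16 from the start.
Asns: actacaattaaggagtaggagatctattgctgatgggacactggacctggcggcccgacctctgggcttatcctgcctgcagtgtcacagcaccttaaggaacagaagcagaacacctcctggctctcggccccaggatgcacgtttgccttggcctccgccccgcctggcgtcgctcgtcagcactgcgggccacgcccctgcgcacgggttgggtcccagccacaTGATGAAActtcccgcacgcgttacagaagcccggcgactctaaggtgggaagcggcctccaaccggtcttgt
The match, TGATGAAA, is the core of the nutrient-sensing response element known from the human gene. The motif searched was TGATGNAA, on both strands.

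Both enzymes of proline synthesis had higher CPM in all knockouts than in any control, as had 3.8% of the 15828 features and 14% of the 1505 genes tested. Of the 2 enzymes Aldh18a1 rose in the fit. Aldh18a1 makes pyrroline-5-carboxylate from glutamate in mitochondria, and lies on chromosome 19 (40550257 to 40588463, minus strand, GRCm38, ENSMUSG00000025007.13). It had 8, 12, 15 and 47 counts in knockouts 1 to 4 and 0, 3 and 3 in controls 1 to 3. Even the lowest knockout count was above the highest control count. It averaged 12.2 ± 2.01 CPM in knockouts and 1.08 ± 1.03 CPM in controls (SD, n = 4 and 3), and its ratio was 10.8 (4.75 to 30.3). Its log2 fold change from the fit was 3.30 ± 0.49 (SE, edgeR, adjusted p = 0.0102), with an adjusted p of 0.0879 without control 2 and 0.0767 without control 3. Without knockout 2, 3 or 4 it did not pass the low-count filter. Pycr1, the mitochondrial reductase that turns pyrroline-5-carboxylate into proline (chromosome 11, 120635712 to 120643769, minus strand), had 1, 1, 3 and 9 counts in knockouts 1 to 4 and 0, 1 and 0 in controls 1 to 3. The raw counts of the groups overlap and the scaled ones do not, with 1.0 to 2.84 CPM in knockouts and 0 to 0.392 CPM in controls. Knockouts 1 and 2 and control 2 each had 1 count, so their separation comes from library size alone. The ratio of 14 counts to 1 was 11.1, with an interval as wide as 1.68 to 468, and 7.91 (0.885 to 374) without knockout 4. Without control 2, which held the 1 count, it was 1.81 when 3 counts were taken for the controls, with an exact lower limit of 1.29.

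Pycr1 was the other gene of the set with a C/EBP-ATF match in its promoter window, shown here for comparison with that of Asns. The match, TGATGCAA, is in capitals at positions -103 to -96 from the RefSeq start (GRCm38.p6, chr11:120643699-120643998, minus strand, read in the direction of the gene).
Pycr1: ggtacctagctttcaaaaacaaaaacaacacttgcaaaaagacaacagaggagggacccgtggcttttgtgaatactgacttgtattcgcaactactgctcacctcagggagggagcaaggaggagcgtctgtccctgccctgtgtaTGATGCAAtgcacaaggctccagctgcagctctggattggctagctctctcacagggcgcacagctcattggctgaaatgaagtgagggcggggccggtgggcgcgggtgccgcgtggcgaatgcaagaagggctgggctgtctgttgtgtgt
Of the 9 genes, 2 had a match, in 10 promoter windows of which 2 belong to Psat1, against 3.97% of all 32851 RefSeq windows of the same length. The match in Asns and that in Pycr1 differ in the free position of the motif. A match is a description of the letters, and its absence elsewhere says only that these letters are not in the window.

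The serine enzymes were the least covered, and for Phgdh and Psph no difference was detectable at this depth. Phgdh, which oxidises 3-phosphoglycerate in the first step of the pathway (chromosome 3, 98313170 to 98339990, minus strand), had 0, 1, 1 and 0 counts in knockouts 1 to 4 and none in controls. Psph, the phosphatase of the last step (chromosome 5, 129765558 to 129787449, minus strand), had 0, 1, 1 and 2 counts in knockouts 1 to 4 and none in controls. Its ratio, set against 3 counts over the control group, was 1.05 with all libraries (exact lower limit 0.522) and 0.517 without control 2, so no direction is given. Of its exonic bases 452 are shared with Cct6a on the other strand. Cct6a had 0, 8, 16 and 23 counts in knockouts 1 to 4 and 5, 4 and 4 in controls 1 to 3. The strand setting is not given, so reads of Cct6a counted under Psph could not be told apart. Psat1, the aminotransferase between them (chromosome 19, 15904678 to 15947337, minus strand), had 5, 2, 6 and 8 counts in knockouts 1 to 4 and 0, 3 and 1 in controls 1 to 3. Its raw counts overlap between the groups, and its scaled levels of 2.01 to 7.64 CPM in knockouts lie above the 0 to 1.18 CPM of controls. The ratio of 21 counts to 4 was 4.15 (1.40 to 16.6), and 8.14 (1.31 to 337) without control 2. By share of nuclear protein-coding counts Psat1 was at 17.1 per 100000 in knockout 1 and at 4.24 to 8.33 in the other knockouts.

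Of the mitochondrial one-carbon enzymes, Shmt2 rose over a low control level, and Mthfd2 and Mthfd1l had counts in all knockouts and in no control. Shmt2 splits serine into glycine and methylene-tetrahydrofolate (chromosome 10, 127517123 to 127522444, minus strand, GENCODE M21). Its counts were 4, 16, 11 and 29 in knockouts 1 to 4 and 2, 6 and 4 in controls 1 to 3. It is the only enzyme of the set with a count in all 3 controls, and its raw counts overlap between the groups. It averaged 9.65 ± 4.46 CPM in knockouts and 2.37 ± 0.362 CPM in controls (SD, n = 4 and 3), without overlap. The ratio was 3.95 (2.10 to 8.07) and the log2 fold change 1.97 ± 0.44 (SE, edgeR, adjusted p = 0.0402). This call ended without any 1 of the 3 controls (edgeR adjusted p between 0.103 and 0.189) and without knockout 1 (0.0533), and without knockout 2, 3 or 4 Shmt2 did not pass the low-count filter. Of its exonic bases 32 are shared with Ndufa4l2, which had at most 2 counts in any library.

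Mthfd2, the dehydrogenase and cyclohydrolase that oxidises methylene-tetrahydrofolate, is known to be low in most adult tissues and high in embryos and tumours (chromosome 6, 83305691 to 83325908, minus strand). It had 3, 4, 14 and 30 counts in knockouts 1 to 4 and 0 in each control. With 51 counts against none its ratio was 13.4 when 3 counts were taken over the control group, with an exact lower limit of 10.5. By share of nuclear protein-coding counts it was at 10.3 and 8.97 per 100000 in knockouts 1 and 2 and at 19.4 and 15.9 in knockouts 3 and 4. Mthfd1l, which releases formate from the carrier in the final step (chromosome 10, 3973118 to 4167081, plus strand), had 1, 1, 7 and 9 counts in knockouts 1 to 4 and 0 in each control. Against 3 control counts its ratio was 4.74 (exact lower limit 3.47), and 2.33 (exact lower limit 1.7) without control 2. Mthfd1l was at 3.42 and 2.24 per 100000 in knockouts 1 and 2, from 1 count each, and at 9.72 and 4.77 in knockouts 3 and 4. The ratio of Mthfd2 against 3 control counts was 6.59 without control 2, with an exact lower limit of 5.17.

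**Figure D2:**
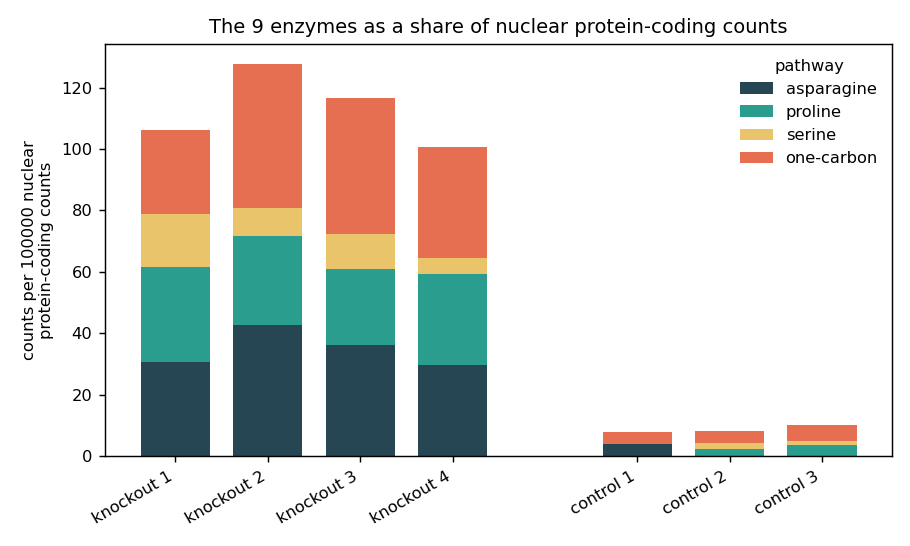
Counts of the 9 enzymes per 100000 nuclear protein-coding counts of the same library (vertical axis), stacked by pathway, in 4 Tefm knockout libraries left of 3 control libraries. Knockout bars reach 101 to 128 per 100000 and control bars 7.83 to 10.1, and the serine segment is the smallest in every knockout.

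By pathway, the share of nuclear protein-coding counts was 34.8 ± 5.90 per 100000 in knockouts and 1.30 ± 2.26 in controls for asparagine (SD, n = 4 and 3). It was 28.7 ± 2.55 and 2.10 ± 1.93 for proline, 10.6 ± 4.95 and 1.05 ± 0.955 for serine, and 38.7 ± 8.90 and 4.24 ± 0.716 for one-carbon enzymes, knockouts before controls. Asns made up 29.0% to 33.3% of the counts of the set in knockouts, and 2 of the 4 counts in control 1 and none of those in the other controls. The serine enzymes had 5 of 31, 4 of 57, 8 of 84 and 10 of 190 counts of the set in knockouts 1 to 4. The one-carbon enzymes had 8, 21, 32 and 68 of the same totals. Whether these parts differed among knockouts was not tested, and the serine parts rest on at most 10 counts.

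Per kilobase of exon the averages were ordered as follows, and the order in controls rests on at most 12 counts of any gene over the 3 libraries. In knockouts Asns was highest at 6.18 ± 0.826 CPM per kb (SD, n = 4), followed by Shmt2 at 3.10 ± 1.43, Aldh18a1 at 3.01 ± 0.494 and Mthfd2 at 1.96 ± 0.840. Shmt2 and Aldh18a1 differed by less than their spread, as did Aldh18a1 and Mthfd2 in knockout 3, where Mthfd2 was the higher. Below these came Psat1 at 0.948 ± 0.597, Mthfd1l at 0.563 ± 0.364 and Pycr1 at 0.467 ± 0.198 CPM per kb, whose ranges overlap, and Phgdh and Psph at 0.167 ± 0.201 and 0.133 ± 0.0966. In controls Shmt2 came first with 0.761 ± 0.116 CPM per kb (SD, n = 3), and no other enzyme was above 0.264 on average, although in control 1 Asns was at 0.736 and Shmt2 at 0.647.

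**Figure D3:**
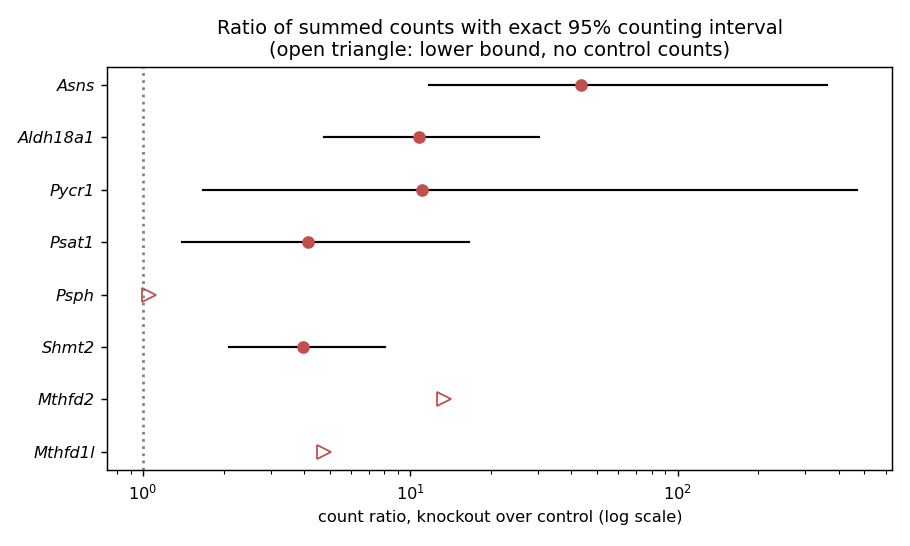
Ratio of summed counts, knockout over control, scaled to TMM library sizes (horizontal axis, log scale), for the 8 enzymes with more than 3 counts in a group. Points carry exact 95% counting intervals, and the intervals of Asns, Aldh18a1, Pycr1, Psat1 and Shmt2 lie above 1. Open triangles are ratios against 3 control counts for genes with no control count, drawn without the counting error of the knockouts.

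Over all genes, 3 of the 9 enzymes had enough counts to enter the fit, and all 3 rose, against 5.25% of the 1505 genes tested (79 up, with 26 down). These 3 passed the low-count filter through their knockout counts, so a member as low in controls that did not differ could not have entered, and the count says nothing of the 6 others. By size of fold change Asns ranked 4, Aldh18a1 12 and Shmt2 66 among the 1505. A fit to all 15828 features with a count held all 9 enzymes, and in it 5 passed and rose. These were Asns (edgeR adjusted p = 1.41e-09), Aldh18a1 (3.12e-05), Shmt2 (0.0352), Mthfd2 (9.28e-07) and Mthfd1l (0.0186). Such values cannot be set beside those of the filtered fit, where Asns had 0.00924 and Aldh18a1 0.0102. Without the filter 0.79% of features rose, or 1.58% of the 7912 features with at least 10 counts over the 7 libraries. That number was reached by 7 of the enzymes. Pycr1, Psat1, Psph and Phgdh had positive log2 fold changes of 2.92, 1.97, 3.16 and 2.35 there and did not pass (edgeR adjusted p = 0.29, 0.342, 0.661 and 0.672). With each library left out of that fit in turn, Asns, Aldh18a1 and Mthfd2 passed all 7 times. Shmt2 passed only without knockout 1 or knockout 4 and was lost without control 1, control 2, control 3, knockout 2 or knockout 3 (edgeR adjusted p = 0.104, 0.256, 0.183, 0.198 and 0.0756). Mthfd1l was lost without control 2, control 3 or knockout 3 (edgeR adjusted p = 0.249, 0.11 and 0.184). In CPM, 7 of the 9 enzymes were higher in every knockout than in any control, against 3.8% of the 15828 features and 14% of the 1505 genes tested.

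**Figure D4:**
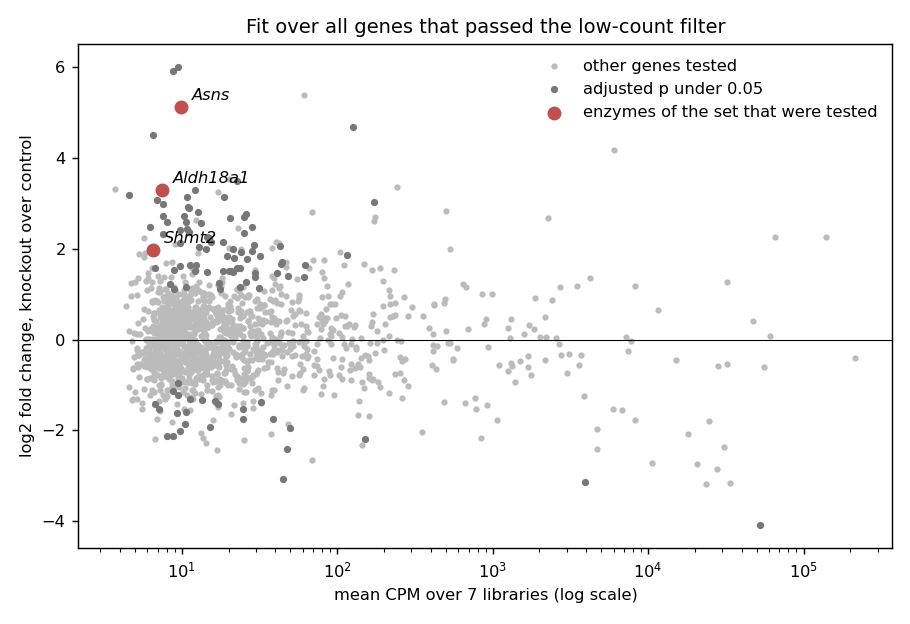
Log2 fold change, knockout over control (vertical axis), against mean CPM over the 7 libraries (horizontal axis, log scale) for the 1505 genes tested by edgeR, with genes at an adjusted p under 0.05 in dark grey. The 3 enzymes that could be tested (red) sit at the low end of abundance with fold changes of 1.97 to 5.12.

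Libraries of both groups also differed in composition. MicroRNA made up 2.17% to 19.3% of the counts in knockouts and 1.93% to 15.2% in controls, with knockout 2 and control 1 the highest in their groups. When the ratio of summed microRNA and snoRNA to nuclear protein-coding RNA entered the fit as a covariate, the same 3 enzymes rose (edgeR adjusted p = 2.71e-04 for Asns, 8.83e-04 for Aldh18a1 and 0.00963 for Shmt2), in a fit where 13% of genes rose. The same 3 rose with scaling to nuclear protein-coding counts (7.31% of genes rose), with DESeq2 size factors (5.32%), with the DESeq2 test (8.7%) and with a minimum count of 5 (2.44% of 3196). Scaling to total counts left Asns and Aldh18a1 (0.664% of genes rose) and scaling to mitochondrially encoded counts left Asns (0.465%), while the median log2 fold change over all genes moved to 0.89 and 1.12. Scaling to microRNA counts left none of the 3 (edgeR adjusted p = 0.975 for each, 1 at an unadjusted p under 0.05), in a fit that called 0 genes (28 at an unadjusted p under 0.05). Relative to the medians with total and with mitochondrially encoded counts, the log2 fold changes of Asns were 4.98 and 4.90. Without control 1, Asns, Aldh18a1 and Mthfd2 rose (1.24% of genes rose), without knockout 1 Asns and Aldh18a1 (3.75%), and without knockout 3 or knockout 4 Asns alone (2.09% and 3.41%).

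The authors' deposited table, whose log2 fold changes are moderated towards 0, lists Asns at 3.95 (adjusted p = 1.6e-07), Mthfd2 at 3.55 (adjusted p = 2.2e-04), Aldh18a1 at 2.77 (adjusted p = 7.69e-05) and Shmt2 at 1.65 (adjusted p = 0.0532). The authors' deposited table gives Psat1 an adjusted p of 0.22, and none for Mthfd1l, Pycr1, Psph and Phgdh. Mthfd2 passed there and Shmt2 did not, which is the opposite of the edgeR fit with the low-count filter, in which Mthfd2 did not enter.

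Other enzymes that use or break down the same amino acids were mostly too low for the test. Of 12 genes of proline and glutamate metabolism 5 were tested, with a median log2 fold change of 0.06 against 0.02 over all genes. By edgeR 1 of the 5 rose, against 5.25% of all genes tested, and by DESeq2 2 were higher, against 8.7%. Among them Glul, glutamine synthetase, rose (41.0 ± 12.9 CPM in knockouts and 14.5 ± 2.03 CPM in controls, log2 fold change 1.47 ± 0.33, edgeR adjusted p = 0.0405). Got1, the cytosolic aspartate aminotransferase, had 0.94 ± 0.34 (edgeR adjusted p = 0.148) and Oat, ornithine aminotransferase, had -0.42 ± 0.41 (edgeR adjusted p = 0.593). Prodh, which breaks proline down, had 3 counts in knockouts and 4 in controls. Of 15 genes that use serine or glycine 1 was tested, Dld, a subunit shared with the glycine cleavage system, at 0.17 ± 0.24 (edgeR adjusted p = 0.744). Of 3 genes of asparagine breakdown and 19 other folate enzymes none passed the low-count filter.

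Cytosolic counterparts of the one-carbon enzymes were too low for the test. Shmt1 had 0, 4, 0 and 5 counts in knockouts 1 to 4 and 1, 0 and 2 in controls 1 to 3, and Mthfd1 had 0, 1, 1 and 13 against 0, 7 and 0, and both overlap between the groups. Their ratios of 2.37 (0.591 to 13.6) for Shmt1 and 1.69 (0.65 to 4.91) for Mthfd1 have intervals that include the 3.95 of Shmt2, and no difference from the mitochondrial enzymes was tested. Mthfd2l, a mitochondrial relative of Mthfd2, had 2 counts in knockouts and 3 in controls. Aldh1l2, the mitochondrial formyl-tetrahydrofolate dehydrogenase, had 4, 12, 7 and 22 counts in knockouts and 2, 5 and 1 in controls, a ratio of 4.44 (2.07 to 10.9). It was the 1 folate enzyme of that list to pass in the fit without a low-count filter (edgeR adjusted p = 0.0401), where 17 of the list had counts and 0.79% of all features rose.

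Among 16 carriers of amino acids and folate 3 were tested, with a median log2 fold change of 1.04, and 1 rose, against 5.25% of all genes tested. This was Slc38a1, a sodium-coupled glutamine carrier (11.3 ± 4.09 CPM in knockouts and 1.12 ± 1.18 CPM in controls, log2 fold change 3.08 ± 0.63, edgeR adjusted p = 0.0342). Slc7a1, a cationic amino acid carrier, had 1.04 ± 0.28 (edgeR adjusted p = 0.0669) and Slc38a2 had 0.76 ± 0.38 (edgeR adjusted p = 0.275). Without a low-count filter, in a fit where 0.79% of all features rose, 4 of 15 passed, all of them higher in knockouts. Besides Slc38a1 these were Slc7a5, the large neutral amino acid carrier (73 counts against 6), Slc1a4, a carrier of serine and alanine (22 against 1), and Slc7a11, the cystine carrier (26 against 0). Of the 18 genes around Atf4, 2 were tested: Atf4 rose (2.82 ± 0.60, edgeR adjusted p = 0.0366) and Atf5 had 1.47 ± 0.41 (edgeR adjusted p = 0.0729), and both were higher by DESeq2. Of all genes tested 5.25% rose by edgeR and 8.7% by DESeq2. Without a low-count filter 4 of the 18 rose, where 0.79% of all features did. These were Atf4, Trib3 (52 counts against 1, edgeR adjusted p = 7.95e-06), Sesn2 (32 against 1, 0.00181) and Chac1 (16 against 0, 0.0242). Others of the list were not called, and their counts went in both directions. Eif4ebp1 had 62 counts against 13 (ratio 3.77, 2.05 to 7.47) and Cebpb 26 against 6 (ratio 3.42, 1.38 to 10.2). Dele1 had 26 counts against 44 (ratio 0.467, 0.276 to 0.775) and was lower in CPM in every knockout than in any control, though not called. Oma1 had 7 counts against 8 and Ddit3 2 against 2.

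The genes whose levels across the 7 libraries ran most like the mean log2 CPM of the 3 tested enzymes were Nppb (Pearson r = 0.994), Sars (0.989), Msn (0.989), Gbe1 (0.989) and Lonp1 (0.987). Nppb encodes the B-type natriuretic peptide, Sars the cytosolic seryl-tRNA synthetase, Msn moesin, Gbe1 the glycogen branching enzyme and Lonp1 a protease of the mitochondrial matrix. Such values describe 7 libraries in 2 groups and mostly repeat the difference between the groups, so no p is given.

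Markers of heart muscle and of other cells were measured in the same libraries. Summed levels of 10 fibroblast markers were 272 to 759 CPM in knockouts and 277 to 467 CPM in controls. Of the 9 tested, Postn, a matrix protein of activated fibroblasts, rose (2.69 ± 0.58, edgeR adjusted p = 0.0366), and by DESeq2 2 were higher in knockouts. Over all genes tested 5.25% rose by edgeR and 8.7% by DESeq2. Dcn, Lum and Pdgfra had log2 fold changes of -0.79, -0.73 and -0.29 and did not pass. Endothelial markers were at 31.1 to 113 CPM in knockouts and 96.6 to 183 CPM in controls, with 0 of 5 tested past edgeR (2 at an unadjusted p under 0.05) and 2 lower by DESeq2. White blood cell markers were at 17.8 to 31.1 and 40.3 to 63.6 CPM, knockouts first. Of the 3 tested Cd74 fell (-2.12 ± 0.43, edgeR adjusted p = 0.0342), as did 26 of all 1505 genes tested. Ptprc of the same list was too low for the test, with 18 counts in knockouts and 4 in controls (ratio 3.56, 1.17 to 14.4). Of the 6 erythroid markers none could be tested, with sums of 5.02 to 18.3 CPM in knockouts and 11.8 to 19.2 CPM in controls. Of 8 proliferation markers 5 were at 0 in every library (Ccnb1, Cdk1, Mcm2, Rrm2 and Tk1), and the summed level was 1.53 to 6.02 CPM in knockouts and 2.01 to 3.42 CPM in controls. The 10 cardiomyocyte markers had negative log2 fold changes, with a median of -0.85. By edgeR 0 of them passed (4 at an unadjusted p under 0.05), and by DESeq2 6 did, all lower in knockouts. Over all 1505 genes tested 100 were lower by DESeq2. The part of these cell markers in the levels of the enzymes was not tested, and in such bulk fractions more cells of a type and more RNA per cell cannot be told apart.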

How the data were processed

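Small RNA libraries from crude heart mitochondria (column kit that keeps small RNA, Illumina small RNA kit, MiSeq, single end) were made by the authors, per the labels' protocols. The raw counts per gene were deposited by the authors. The submitters' processing notes list, without roles, DESeq2 1.14.1, R 3.3.2, featureCounts, Bowtie2, cutadapt 1.10, SAMtools 1.3.1 and bedtools, and the build mm10. No source used here gives the annotation release, strand setting or treatment of multiply mapped reads. The normalised signal deposited by the authors equals raw counts over a constant of each library (0.496 to 2.65) and served as a check. The table of comparisons deposited by the authors holds a mean signal, a log2 fold change, a Wald score and p-values.

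The test of counts was the quasi-likelihood test of edgeR 4.0.16 (R 4.3.3, TMM, minimum count 10, two-sided, no covariate), with Benjamini-Hochberg adjustment over all 1505 genes and calls at 0.05. SE is the fold change divided by the root of the F statistic. Ratios of summed counts were scaled to TMM library sizes, with Clopper-Pearson 95% intervals (scipy 1.17.1, Python 3.11.15). A group at 0 was set to 3 counts over the group for a ratio, which does not hold the counting error of the other group. The exact lower limit at 0 counts does. Exon lengths and coordinates are from GENCODE M21 (GRCm38), which holds Shmt2 under a later identifier version. Promoters are from RefSeq (GRCm38.p6), and all 9 symbols matched. Alternatives were a block for the replicate number, a composition covariate, DESeq2 1.42.0, each library left out, and other filters and scalings. Leaving out libraries without a low-count filter was chosen after seeing the data. Protein sequences were not analysed here.

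The members and lists were chosen with earlier results of these data known. Named genes by rule are the 9 enzymes, Tefm, called genes of each pathway list with its 2 smallest other p, and the 5 genes most like the tested enzymes in log2(CPM + 1). Other pathway genes, and the markers, were named after their values were seen.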

Additional observations from a re-analysis of the deposited data

Results flagged for a closer look

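By share of nuclear protein-coding counts, Shmt2 stood at 35.9 per 100000 in knockout 2, against 13.7, 15.3 and 15.4 per 100000 in knockouts 1, 3 and 4 and 3.74 to 5.06 per 100000 in the controls. It was marked because the gap to the next knockout took 0.924 of the range of the group, above the 95% critical value of Dixon's test for 4 samples. Chance alone marks about 5% of groups, and CPM and this share were looked at for each of the 9 enzymes. Shmt2 in CPM was also highest in knockout 2, at 16.1, and was not marked.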

How the results depend on the processing

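The number of enzymes called, 3 of 9, was 3 with DESeq2 size factors, the DESeq2 test, nuclear protein-coding scaling, a minimum count of 5 and the composition covariate, and 2 with scaling to total counts. It was 1 with scaling to mitochondrially encoded counts, 0 with scaling to microRNA counts (edgeR, 1 at an unadjusted p under 0.05) and 5 without a low-count filter. Leaving out 1 library gave 0 to 3 enzymes called: 0 without control 2 or control 3 (edgeR, 4 of 4 tested at an unadjusted p under 0.05 each), and 0 without knockout 2, where none passed the filter. Without knockout 3 or knockout 4 only Asns passed the filter, and it was called. Without a low-count filter the range was 3 to 5, in fits where 0.555% to 1.43% of features were called in either direction.

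The number of genes called over all features, 105, was 11 with total counts, 8 with mitochondrially encoded counts, 0 with microRNA counts (edgeR, 28 at an unadjusted p under 0.05), 192 without a filter, 231 with the DESeq2 test and 371 with the covariate, and 0 to 75 with 1 library left out. The fold changes of Asns (4.05 to 7.84), Aldh18a1 (2.77 to 4.52) and Shmt2 (1.71 to 3.06, log2) stayed positive in every alternative that held them, and the cause of lost calls was not tested.

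With the replicate number as a block, 0 enzymes and 0 genes were called (edgeR, 3 enzymes and 338 genes at an unadjusted p under 0.05). Deviations of same-numbered libraries from their group means correlated at r = 0.53, -0.804 and 0.319. With signs that differ and so few libraries these values cannot decide on pairing, and nothing in the labels pairs the libraries. Counting limits the rest: Phgdh and Psph have too few reads for any statement, and fold changes of genes with 0 to 2 control counts depend on the prior count.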
